A study of Mesocricetus auratus with 10 samples.

Results

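Gluconeogenesis was followed through 6 liver genes, PCK1, PCK2, G6PC, G6PC3, FBP1 and PC, in male golden hamsters (Mesocricetus auratus) on a high fat diet (HFD) that gives a fatty liver. Liver RNA of 10 HFD animals was set against 1 pool of liver RNA from 10 hamsters on a standard diet (STD) on custom Agilent arrays of 2 colours. Each HFD liver met the pool on 2 arrays in opposite dye orientations, and these 20 arrays gave 10 replicates. No allele or drug is named for either diet, and neither age, nor what the diet held, nor its length is given in the labels. The genes were found by the gene name of the array's design, and all 6 were present among 14434 named genes. They were covered by 53 of the 116452 probes, namely 10 for PCK1, 11 for PCK2, 6 for G6PC, 3 for G6PC3, 9 for FBP1 and 14 for PC. All 53 probes passed the filter on dim probes. Of these, 52 were well above background on all 20 arrays in the HFD RNA and in the pool, and the other, a PCK2 probe, on 13 arrays in each.

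Gluconeogenesis makes glucose from lactate, amino acids and glycerol, mainly in the liver during fasting. Most of its reactions are those of glycolysis run backwards, and the members described here catalyse the steps that glycolysis cannot reverse. Pyruvate carboxylase (PC) turns pyruvate into oxaloacetate, and phosphoenolpyruvate carboxykinase, cytosolic (PCK1) or mitochondrial (PCK2), turns oxaloacetate into phosphoenolpyruvate. Fructose-1,6-bisphosphatase (FBP1) and the catalytic subunits of glucose-6-phosphatase (G6PC in liver and kidney, G6PC3 in most tissues) remove phosphate groups near the end of the route. In rodents, glucagon acting through cAMP and the factor FOXO1 raises PCK1 and G6PC transcription, and insulin lowers it.

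Values are log2 ratios, HFD liver over pool, averaged over the 2 arrays of an animal, as mean ± SD between animals (n = 10). Adjusted p is from limma, two-sided, over 13875 named genes for a gene (its brightest probe) and over 104156 probes for a probe, with a threshold of 0.05. The pool enters as 1 fixed RNA, so the tests leave out the spread between the STD animals. Which dye carried which RNA, and so the sign of every ratio, rests on the array names. In bulk liver, fewer cells of a type and less RNA per cell cannot be told apart.

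Of all genes tested, 31.3% were called higher and 28.8% lower in HFD livers, 60.1% in all, so a call alone sets no gene apart. The median ratio of all genes was 0.0082 and the median size of a ratio was 0.11. For animals 5 to 10, the 6 arrays that carried HFD in Cy3 were unlike the others. Across genes they correlated with each other at a median r of 0.88 and with the other 14 arrays at 0.49, against 0.63 within those 14. For the 6 genes and the genes named from lists, a value on the 14 arrays alone is given where the call was lost or gained or the ratio moved by more than 1.5 times. Genes named only for ratios that run like a member's over the animals carry no such value. The tissue label was checked on hepatocyte markers, of which 18 of 20 were tested and 17 were well above background on all 20 arrays in both RNAs.

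The probes behind the gene values are shown first, 5′ to 3′, since each gene's value rests on the 60 bases of its brightest probe. In the PCK1 pair, capitals mark the 58 bases that the brightest probe shares with a probe of the other transcript named PCK1. The other probes have no part marked. Which strand of a gene each probe reads is not given, so a value under a gene's name, as for PC, may come from its antisense strand.
PCK1, CUST_38593: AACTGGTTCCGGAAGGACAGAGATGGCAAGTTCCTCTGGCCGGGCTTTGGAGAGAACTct
PCK1, CUST_79519: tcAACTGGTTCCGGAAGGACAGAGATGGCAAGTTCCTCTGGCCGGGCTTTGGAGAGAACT
G6PC, CUST_59704: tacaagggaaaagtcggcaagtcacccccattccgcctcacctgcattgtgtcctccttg
FBP1, CUST_58067: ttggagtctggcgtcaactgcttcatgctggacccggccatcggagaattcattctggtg
PC, CUST_100323: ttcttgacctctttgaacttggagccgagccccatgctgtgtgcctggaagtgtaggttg
PCK2, CUST_85692: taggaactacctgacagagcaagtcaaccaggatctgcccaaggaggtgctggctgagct
G6PC3, CUST_66175: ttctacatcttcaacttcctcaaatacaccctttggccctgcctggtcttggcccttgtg
No probe of another name among the 116452 shared 20 or more bases in a row with a probe of these genes on either strand. No 2 of the 6 genes shared 15. RefSeq, on assembly BCM_Maur_2.0, lists all 6 as protein-coding, with G6PC under its newer symbol G6pc1.

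PCK1 and G6PC fell most in HFD livers, PC, PCK2 and FBP1 fell by small amounts, and G6PC3 rose slightly. By the brightest probe 5 of 6 genes were called lower and 1 higher, against 28.8% lower, 31.3% higher and 60.1% called in all among the genes tested. The calls of PC, PCK2 and FBP1 were lost on the arrays with HFD in Cy3 alone, and that of PC also on the 14 arrays. Only PCK1 and G6PC were also at least 1.5-fold lower, a rule met by 2.09% of all genes tested. PCK1 held rank 14 and G6PC rank 102 from the lowest ratio among 13875 genes.

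PCK1, the cytosolic step often taken as the marker of the route, had a normalised log2 intensity of 12.12 to 13.54 in HFD livers (median 12.86), against 14.03 to 14.50 for the pool on the same arrays (median 14.38). The HFD and pool values did not overlap, as held for 3.54% of all genes with HFD below and 3.81% with HFD above. Its log2 ratio lay between -2.35 in animal 6 and -0.88 in animal 10, with a median of -1.41. Animals 6 and 9 (-2.24) were the lowest, and the other 8 animals lay at -1.65 or above. The mean was -1.52 ± 0.46, a 2.87-fold lower level, with adjusted p = 4.40e-07. All 10 animals were below 0, as were those of 15.1% of genes.

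G6PC, which releases free glucose from glucose 6-phosphate, had a normalised log2 intensity of 11.94 to 13.08 in HFD livers (median 12.73), against 13.10 to 13.60 for the pool (median 13.43). Its HFD and pool values also did not overlap, though the highest HFD value lay just under the lowest pool value. The log2 ratio lay between -1.50 in animal 1 and -0.34 in animal 3, with a median of -0.72. Animals 1 and 9 stood at the low end. The mean was -0.81 ± 0.41, 1.76-fold lower, with adjusted p = 3.14e-05 and 10 of 10 animals below 0.

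**Figure D1:**
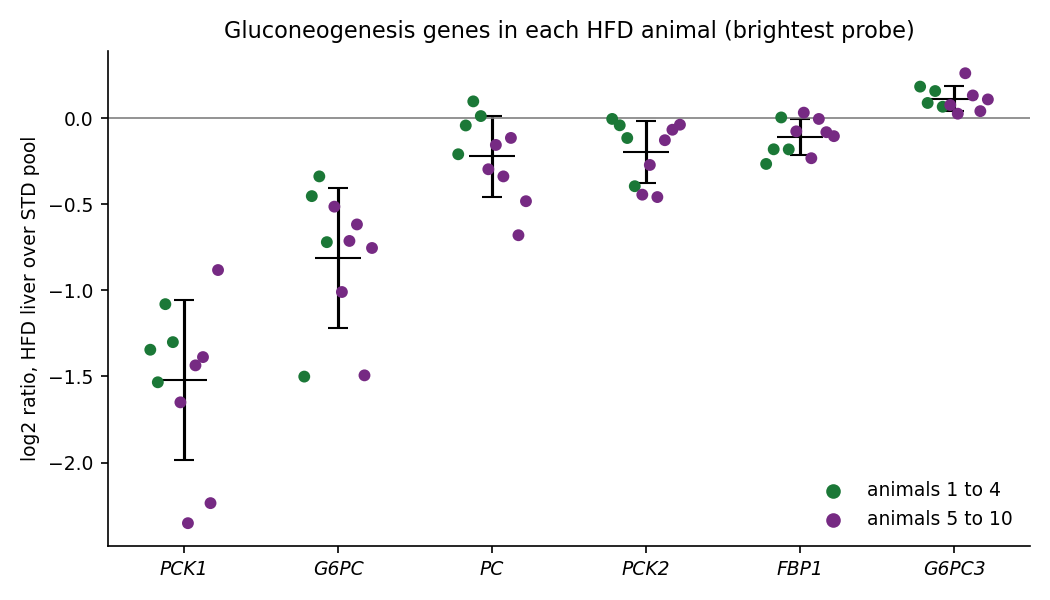
Log2 ratio (HFD liver over pool) for the brightest probe of each gene, 1 point per animal, with the mean and SD of 10 animals as bar and whiskers. PCK1 (-1.52 ± 0.46) and G6PC (-0.81 ± 0.41) have the lowest means, the G6PC points overlap those of PC and PCK2, and all 10 G6PC3 points are above 0.

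PC, the mitochondrial entry step, ranged from -0.68 in animal 9 to 0.10 in animal 3, with a median of -0.18. The mean was -0.22 ± 0.24, 1.17-fold lower, with adjusted p = 0.0095 and 8 of 10 animals below 0. Its HFD levels of 9.74 to 10.20 overlapped the pool's 10.06 to 10.43. The mean was -0.036 in animals 1 to 4 and -0.35 in animals 5 to 10, and this gap lay in the arrays with HFD in Cy3. There these animals gave 0.18 and -0.46, and with HFD in Cy5 -0.25 and -0.23. On the arrays with HFD in Cy5 alone it was -0.24 ± 0.11 (limma, adjusted p = 8.03e-05). In the fit of the 14 arrays without the 6 unlike ones it was -0.028, adjusted p = 0.606, and the call was lost. Through its dye term, that fit weighs the Cy3 arrays of animals 1 to 4 as much as all the Cy5 arrays.

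PCK2, the mitochondrial carboxykinase, ranged from -0.46 in animal 7 to -0.0053 in animal 1, with a median of -0.12. The mean was -0.20 ± 0.18, 1.15-fold lower, with adjusted p = 0.00432 and 10 of 10 animals below 0. Its HFD levels of 10.39 to 10.97 overlapped the pool's 10.73 to 11.04.

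FBP1 had a ratio of -0.11 ± 0.10 at its brightest probe, 1.08-fold lower, with adjusted p = 0.0105 and 8 of 10 animals below 0. Its HFD levels of 15.22 to 15.57 overlapped the pool's 15.35 to 15.60. Over all its probes, which lie on both strands, the mean was -0.36 ± 0.16, more than 1.5 times as far from 0.

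G6PC3, the widely expressed paralogue, was the exception to the direction. Its ratio lay between 0.025 in animal 6 and 0.26 in animal 7, with a median of 0.098 and a mean of 0.11 ± 0.072. That was 8.16% higher, with adjusted p = 0.0022 and 10 of 10 animals above 0, as for 16.3% of genes. The HFD levels of 8.79 to 9.28 overlapped the pool's 8.72 to 9.02.

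**Figure D2:**
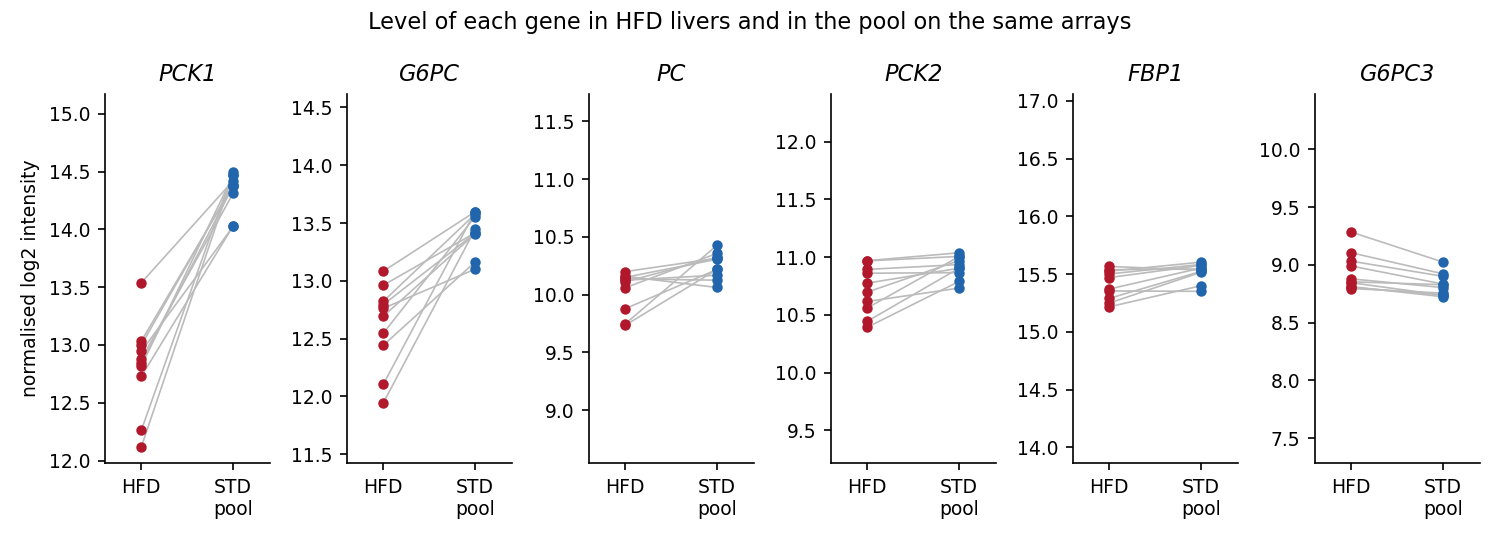
Normalised log2 intensity of each gene's brightest probe in the HFD liver (left of each panel) and in the STD pool (right) for 10 animals, each animal's mean over its 2 arrays joined by a line, all panels spanning the same range of log2 units. The HFD and pool points are separate for PCK1 and G6PC and overlap for the other 4 genes.

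Ordered by ratio, neighbours were compared within animals by an exact sign-flip test, two-sided, whose smallest p at 10 animals is 0.00195. PCK1 was lower than G6PC by 0.71 ± 0.45 log2 units (p = 0.00586, 9 of 10 animals). G6PC was lower than PC by 0.59 ± 0.33 (p = 0.00195, 10 of 10 animals). PC and PCK2 differed by -0.025 ± 0.31 (p = 0.822), and PCK2 and FBP1 by -0.087 ± 0.20 (p = 0.199), so the order among these 3 was not resolved. FBP1 was lower than G6PC3 by 0.22 ± 0.15 (p = 0.00391, 9 of 10 animals). These were 5 comparisons, with p unadjusted.

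The large PCK1 difference was shared by all its probes. All 10 were called lower, with means between -1.55 and -1.16, and so were all 6 probes of G6PC, with means between -1.36 and -0.80. All 14 PC probes (-0.60 to -0.18) and all 9 FBP1 probes (-0.62 to -0.11) were called lower too. PCK2 had 8 of 11 probes lower and 3 not called, with means from -0.30 to -0.0034, and G6PC3 had 3 of 3 higher (0.11 to 0.16). In all, 47 of 53 probes were called lower and 3 higher, against 28.3% lower and 26.7% higher of all probes tested, 55% in all. Probes of 1 gene were read on the same samples and are not replicates of the diet, and for FBP1 and G6PC they lie on both strands. All 14 PC probes lie on 1 transcript, and which strand of PC they read is not given. On the 14 arrays, PCK1, G6PC, FBP1 and G6PC3 kept these counts, while PC had 6 probes lower and PCK2 had 5.

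**Figure D3:**
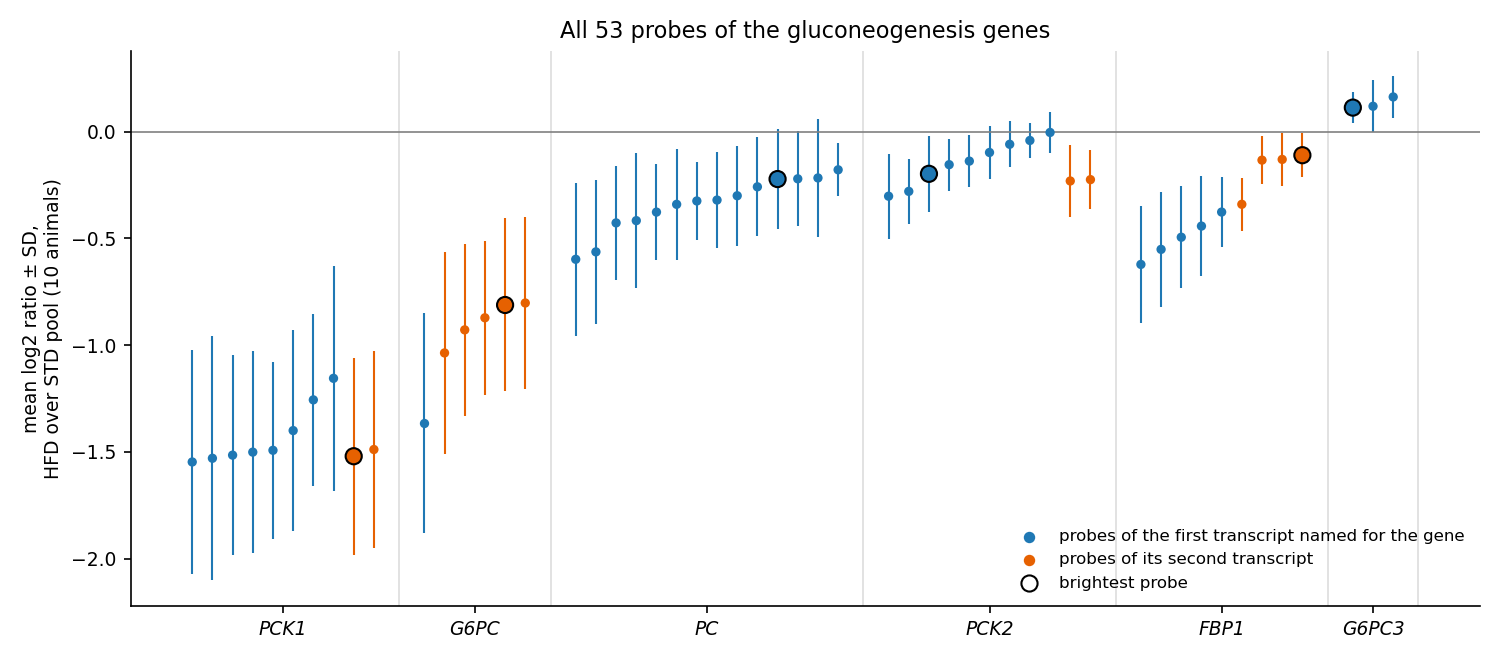
Mean log2 ratio ± SD over 10 animals for each of the 53 probes, grouped by gene and coloured by the transcript of the array's design, with each gene's brightest probe outlined. All PCK1 and G6PC probes lie at -0.80 or below, and the FBP1 probes form groups by transcript.

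PCK1, PCK2, G6PC and FBP1 each had probes on 2 assembled transcripts. The 58 bases shared by the PCK1 pair shown above lie on the same strand, and these probes gave -1.52 ± 0.46 and -1.52 ± 0.47. A PCK2 pair that shared 37 bases on the same strand, CUST_91115 and CUST_85690, gave -0.22 ± 0.14 (adjusted p = 0.00046) and -0.06 ± 0.11 (adjusted p = 0.162). FBP1 and G6PC had probe pairs on opposite strands. Their sequences are shown because the ratios on the 2 strands differ, with the shared stretch, which runs in opposite senses in the probes of a pair, in capitals.
FBP1, CUST_67677: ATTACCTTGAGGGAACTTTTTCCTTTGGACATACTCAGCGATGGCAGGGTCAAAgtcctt
FBP1, CUST_58068: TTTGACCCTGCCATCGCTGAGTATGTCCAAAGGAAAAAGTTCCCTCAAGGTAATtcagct
G6PC, CUST_72971: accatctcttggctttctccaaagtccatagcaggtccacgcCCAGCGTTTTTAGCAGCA
G6PC, CUST_59703: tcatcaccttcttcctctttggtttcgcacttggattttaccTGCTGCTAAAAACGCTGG
The FBP1 pair shared 54 bases, and CUST_67677 gave -0.55 ± 0.27 against -0.13 ± 0.12 for CUST_58068. The 5 probes of the FBP1 transcript that CUST_67677 belongs to lay between -0.62 and -0.38, and the 4 of the transcript of CUST_58068 between -0.34 and -0.11. By the median probe of each transcript, the difference was -0.37 ± 0.21 log2 units, and the transcript of CUST_67677 was the lower in 10 of 10 animals. The G6PC pair shared 18 bases, and CUST_72971 gave -1.36 ± 0.51 against -0.80 ± 0.40 for CUST_59703. Against the median of the other 5 G6PC probes the difference was -0.50 ± 0.26, with CUST_72971 lower in 10 of 10 animals. These groupings were seen in the values first and carry no test.

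Opposite-strand probes gave unequal ratios elsewhere on the array as well. Among all probes that passed the filter, the 974 pairs sharing at least 40 bases on opposite strands differed by a median of 0.23 log2 units, and 21.9% by more than 0.4. The 2743 such pairs on the same strand differed by a median of 0.020, and 0.182% by more than 0.4. The FBP1 difference moved with the 6 unlike arrays. For the 5 probes of the CUST_67677 transcript, the mean with HFD in Cy3 was -1.19 to -0.79 in animals 5 to 10, against -0.37 to -0.12 in animals 1 to 4. With HFD in Cy5 it was -0.38 to -0.09 in animals 5 to 10 and -0.47 to -0.19 in animals 1 to 4. CUST_72971 of G6PC showed the same split, with -1.86 and -0.78 in Cy3, and -1.22 and -1.41 in Cy5. All 14 PC probes lie on 1 transcript, and their means with HFD in Cy3 were -1.08 to -0.36 in animals 5 to 10 and -0.10 to 0.31 in animals 1 to 4. On the 14 arrays all 9 FBP1 probes were still called lower, and the ranges of the transcripts met, at -0.34 to -0.24 for that of CUST_67677 and -0.25 to -0.095 for that of CUST_58068. CUST_72971 was then at -1.02 and the other G6PC probes between -0.90 and -0.75. The part of probe strand in the differences was not tested.

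The dye orientation moved the size of most ratios, though not their order at the low end. For PCK1 the mean was -1.77 ± 0.42 with HFD in Cy5 and -1.27 ± 0.52 with HFD in Cy3, and the Cy5 value was lower in 10 of 10 animals. PCK2 gave -0.33 ± 0.18 in Cy5 and -0.066 ± 0.19 in Cy3, and FBP1 -0.21 ± 0.13 and -0.0055 ± 0.092, again with Cy5 lower in 10 of 10 animals. Each of these 3 had p = 0.00195 by the exact sign-flip test and 0.00391 adjusted over the 6 dye comparisons. G6PC gave -0.90 ± 0.37 in Cy5 and -0.73 ± 0.45 in Cy3, with Cy5 lower in 8 of 10 animals (p = 0.0234, adjusted 0.0352). PC (p = 0.824) and G6PC3 (p = 0.662) did not pass. PC gave -0.24 ± 0.11 in Cy5 and -0.21 ± 0.42 in Cy3. Its Cy3 value was above the Cy5 value in animals 1 to 4 and below it in animals 5 to 10, which a test of the mean difference cannot show. From Cy3 arrays alone, PCK2 (adjusted p = 0.329), FBP1 (0.899) and PC (0.134) were not called. The order of the animals was nonetheless kept between the arrays for PCK1 (r = 0.93, rho = 1 over 10 animals) and G6PC (r = 0.92, rho = 0.87). For G6PC3 it was not (r = -0.15, rho = -0.28).

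**Figure D4:**
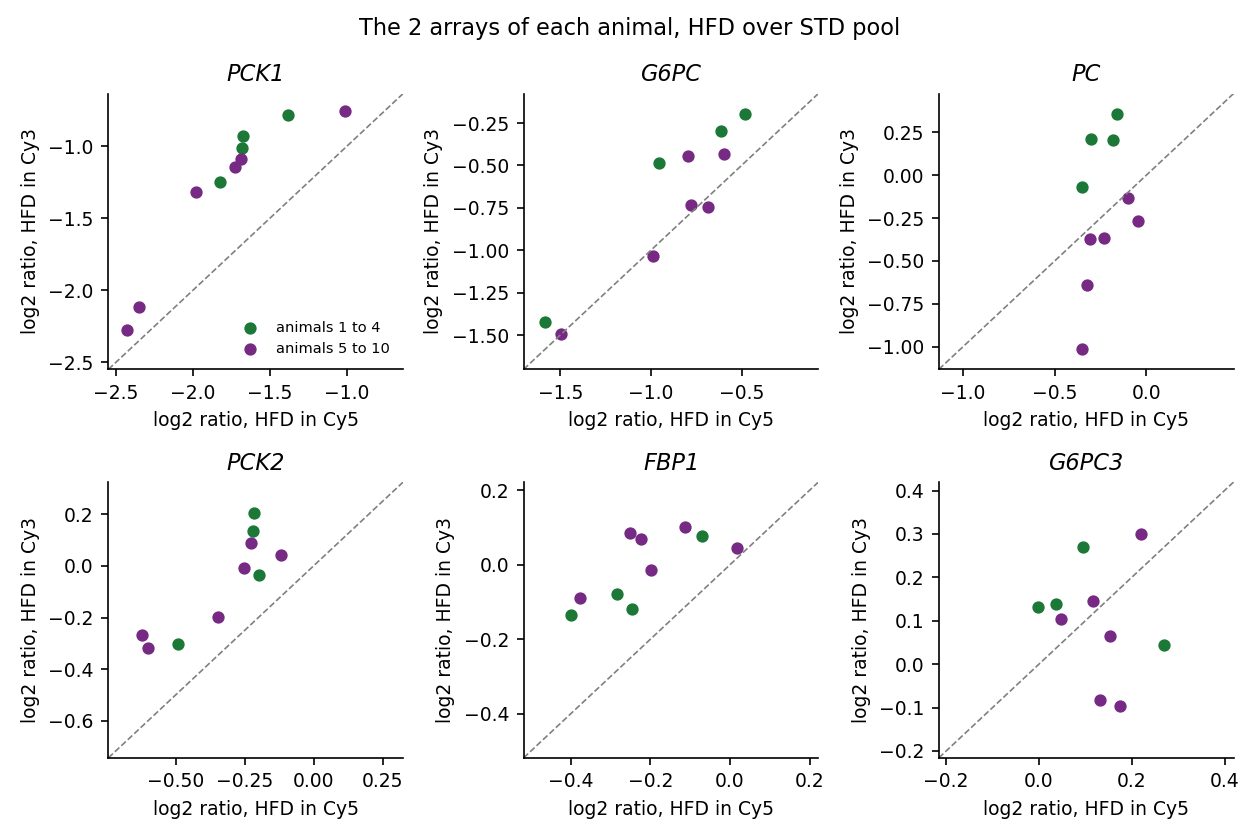
Log2 ratio (HFD liver over pool) on the array with HFD in Cy5 (x axis) and on the array with HFD in Cy3 (y axis), 1 point per animal, with a dashed line where both are equal. PCK1, PCK2 and FBP1 points all lie above the line, and for PC only animals 1 to 4 lie well above it.

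Across animals no pair of the 6 genes passed a test of correlation. Of 15 pairs, PC and G6PC had the highest r at 0.58 (permutation p = 0.0769, adjusted 0.604; rho = 0.56, p = 0.0957, adjusted 0.788). PCK1 and G6PC had r = 0.47 (permutation p = 0.161, adjusted 0.604) and rho = 0.16 (p = 0.658, adjusted 0.822). Without animals 6 and 9, the 2 farthest from the PCK1 median, their r was -0.059. Within animals 5 to 10 their r was 0.66 (exact permutation p = 0.154). All pairs share the pool and the arrays.

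Among all tested genes with a proper symbol, those whose ratios ran most like PCK1 over the 10 animals were PRKCQ (r = 0.90), FOXA3 (0.86) and TROVE2 (0.82). For G6PC they were BOLA1 (0.93), CDCP1 (0.91) and ZFP646 (0.91), and for PC CYB5 (0.98), MTG1 (0.98) and AK4 (0.98). PCK2 was followed by KIFC1 (0.94), FAT3 (0.91) and KIF15 (0.86), FBP1 by APEH (0.91), SLC25A20 (0.90) and F13B (0.90), and G6PC3 by RHOH (0.97), STON2 (0.92) and TRIB3 (0.92). These are the highest r values over all such genes, with arrays and pool in common, and are given as a description.

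Around the 6 enzymes, the steps that glycolysis and gluconeogenesis share moved both ways. Of 13 tested genes of this list 4 were higher and 7 lower, with a median of -0.08. This count and those of the lists below stand against 31.3% higher and 28.8% lower, 60.1% in all, of all genes tested. LDHB (0.89 ± 0.16), a lactate dehydrogenase subunit, and TPI1 (0.73 ± 0.11), triosephosphate isomerase, were the highest. GAPDH (-0.51 ± 0.31), a dehydrogenase of these shared steps, was lower. The list also held FBP2, the muscle-type fructose-bisphosphatase, whose step is not a shared one. FBP2 was lower at its brightest probe (-0.32 ± 0.11), with 1 of its 2 probes called lower.

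A list of opposing glycolytic and pyruvate steps, which mixes enzymes with their kinases and inhibitors, had 8 of 19 genes higher, 1 lower and a median of 0.11. The 14 arrays, on which fewer of all genes were called, gave 7 higher and 2 lower, with a median of 0.065. PDK2 (0.74 ± 0.18), a kinase that switches off pyruvate dehydrogenase, was higher. PFKL, the liver phosphofructokinase opposite FBP1, was higher at its brightest probe (0.26 ± 0.08), with 4 of its 9 probes called higher and a median over them of 0.048. PKLR, the pyruvate kinase opposite PC and PCK1, was not called at 0.11 ± 0.59 (adjusted p = 0.56). On the 14 arrays it was 0.41 and called higher (adjusted p = 0.00475).

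Of 23 genes of substrate supply and transport, 4 were higher and 8 lower, with a median of -0.11. SLC37A4, which carries glucose 6-phosphate to G6PC, was lower (-0.52 ± 0.30, adjusted p = 0.000116, 9 of 10 animals), as was the aspartate-glutamate carrier SLC25A13 (-0.42 ± 0.23, and -0.24 on the 14 arrays). SLC2A2, the liver glucose transporter, was higher at its brightest probe (0.61 ± 0.25, and 0.40 on the 14 arrays), with 4 of its 7 probes called higher and 3 lower.

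Regulators were called in both directions at 10 higher and 14 lower of 37, with a median of -0.04. The 14 arrays gave 6 higher and 9 lower, where 3448 and 2527 of all 13875 genes were. FOXO1 (-0.23 ± 0.14), HNF4A (-0.39 ± 0.19), a hepatocyte nuclear receptor, and TXNIP (-0.75 ± 0.50, and -0.38 on the 14 arrays), a glucose-responsive gene, were lower. PPARGC1A, a coactivator of fasting genes, was higher (0.22 ± 0.24, adjusted p = 0.0115), and on the 14 arrays it was not called (0.08, adjusted p = 0.379). NR4A1 had no settled direction. Its brightest probe, at 0.49 ± 0.21 (0.26 on the 14 arrays), was the 1 of 12 called higher, 2 were called lower, and the median over the 12 was -0.22. Of 25 hormone signalling genes 9 were higher and 9 lower, with a median of -0.06, and on the 14 arrays 5 were higher and 5 lower. TRIB3, an inhibitor of AKT, averaged 0.65 ± 0.43 and PRKAR1A, a regulatory subunit of protein kinase A, -0.63 ± 0.23 (-0.37 on the 14 arrays). PDPK1, an activator of AKT, averaged 0.54 ± 0.24 at its brightest probe (0.25 on the 14 arrays), with 6 of its 13 probes called higher, 3 lower and a median over them of 0.080. The glucagon receptor gene GCGR was not called (-0.07 ± 0.13, adjusted p = 0.117).

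A list of liver targets of FOXO and cAMP signalling had 2 of 16 higher and 7 lower, with a median of -0.12 (1 higher and 7 lower on the 14 arrays). It shares genes with the lists above, among them TAT, PDK4 and INSR, which were lower. Its 2 higher genes, PPARGC1A and NR4A1, are the ones described above. LPIN1 (-1.61 ± 0.77), a phosphatidate phosphatase, IGFBP1 (-1.07 ± 0.70), a binding protein of insulin-like growth factors, and FGF21 (-0.72 ± 0.37), a fasting hormone, were lower. IGFBP1 was below 0 in 9 of 10 animals and LPIN1 in all 10. All 4 LPIN1 probes were called lower, with a median over them of -0.68, and in HFD livers the brightest passed background on 15 of 20 arrays. By the median over probes IGFBP1, at -1.05, was the lowest of these 3 genes. The first 5 lists together held 116 tested genes, with 35 higher and 38 lower and a median of -0.03, against 31.3% and 28.8% of all genes.

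**Figure D5:**
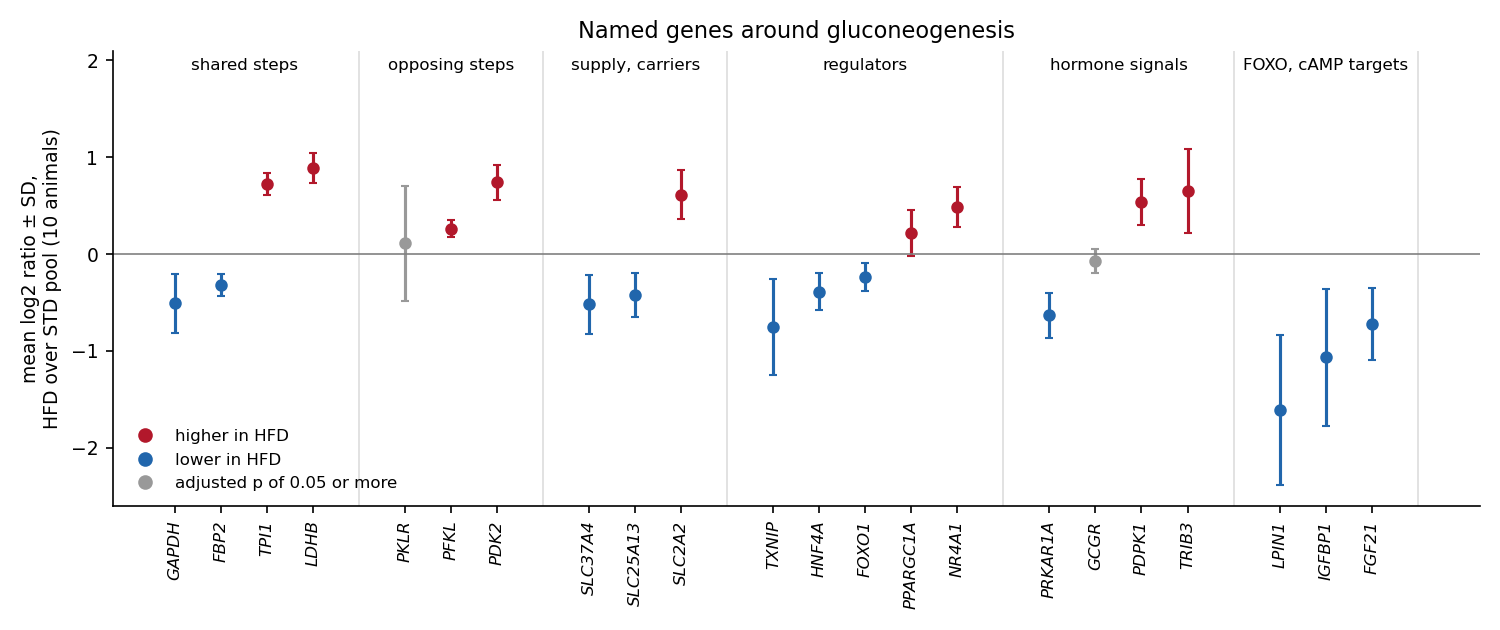
Mean log2 ratio ± SD over 10 animals of genes named in the text around gluconeogenesis, grouped by list, red for higher and blue for lower in HFD livers at adjusted p under 0.05, grey otherwise. By brightest probe, LDHB (0.89 ± 0.16) is the highest and LPIN1 (-1.61 ± 0.77) the lowest of them, and by the median over probes IGFBP1 (-1.05) lies below LPIN1 (-0.68).

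Markers of cell types were read against the 31.3% higher and 28.8% lower, 60.1% in all, of all genes tested. Of 18 hepatocyte markers 14 were lower and 1 higher, with a median of -0.39 and a list mean per animal of -0.55 to -0.25. FGB (-1.17 ± 0.40), AMBP (-0.79 ± 0.21) and TDO2 (-0.73 ± 0.20) fell most. Of 16 genes of periportal hepatocytes, the zone where PCK1 and G6PC are highest in mouse liver, 9 were lower, with a median of -0.22. ARG1 (-1.15 ± 0.27) and ASS1 (-1.08 ± 0.22), enzymes of the urea cycle, and HSD17B13 (-1.02 ± 0.35, and -0.65 on the 14 arrays) led them. Of 14 pericentral genes 3 were higher and 5 lower, with a median of 0.0031. Macrophage markers had 6 of 11 higher and 3 lower (list mean per animal -0.12 to 0.24), with CD68 (0.84 ± 0.34) and MARCO (0.76 ± 0.36) higher and CD163 (-1.25 ± 0.32) lower. Stellate cell markers had 3 of 11 higher and 2 lower (-0.07 to 0.23), and endothelial markers 4 of 10 higher and 2 lower (-0.05 to 0.10). Cholangiocyte markers had 1 of 5 lower (-0.10 to 0.05), and markers of fat and kidney tubule, other tissues that use PCK1, 4 of 9 lower (-0.16 to 0.01). In the stellate cell, cholangiocyte and fat and kidney lists the share called was under that of all genes. Endothelial markers had 2 higher and 1 lower on the 14 arrays, and fat and kidney markers 1 higher and 2 lower. Of all 13875 genes, 3448 were higher and 2527 lower on those arrays. All tested markers of these last 4 cell types and of macrophages were above background on at least 19 of 20 arrays. The part of cell composition and of zonation in the PCK1 and G6PC values was not tested.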

How the data were processed

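Per the file headers, the deposited intensities, a mean signal and a median background per spot in green and red, came from Agilent Feature Extraction 10.7.3.1. Per the labels, 100 ng of liver RNA was labelled per dye. The log2 ratios that the authors deposited per probe and animal were made with limma, per the submitters' processing notes. Set against the scanner values they run as HFD over STD pool, with array names giving the dyes. Their medians for animals 1 to 10 were -0.000128, -0.0145, -0.000492, -0.00171, 0.0185, -0.0122, -0.00991, 0.0075, -0.0012 and -0.0103, with slopes of 1.12 to 1.59 against the ratios computed here, so their centring and exact scale stay unknown.

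Intensities were corrected with normexp (offset 50) and loess-normalised within arrays with limma 3.58.1 (R 4.3.3), leaving out control and outlier spots. Spots of a probe and the dye-swapped arrays of an animal were averaged. A probe was kept when well above background in either RNA on at least 10 of 20 arrays. A gene was represented by its brightest kept probe. Levels were quantile-scaled between arrays (Aquantile). The mean ratio was tested against 0 with lmFit and eBayes and Benjamini-Hochberg adjustment. Correlations carry p from 100000 permutations. On simulated ratios of 13875 genes, the test recovered 84% of changes of 0.25 and 98% of those of 0.5, with 8 false calls. Only 50 genes were changed per size there, with independent normal noise and no dye or array effects. In these data far more genes were called and 6 arrays were unlike the others, so those rates need not hold here. The number of arrays limits the precision. The members and lists were chosen with earlier results of these data known. All 6 genes and their probes are named, with up to 3 called genes of largest ratio per list, counterparts of the members, and the 3 genes most alike over animals. Some genes that this rule takes are not reported here.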

Additional observations from a re-analysis of the deposited data

How the results depend on the processing

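PCK1 (-1.77 to -1.27) and G6PC (-0.97 to -0.73) kept their direction and their call under all 30 alternatives tried for each. The other members lost the call under some, and the cause was not tested. From the arrays with HFD in Cy3, FBP1 was -0.0055 (adjusted p = 0.899), PC -0.21 (0.134) and PCK2 -0.066 (0.329), which left 2 members lower and 1 member probe higher. In animals 1 to 4 alone, FBP1 was -0.16 (0.0649), PC -0.036 (0.691), PCK2 -0.14 (0.167) and G6PC3 0.12 (0.0802), with 2 members lower and 0 higher by limma (3 and 1 at an unadjusted p under 0.05), 24 member probes lower, 19 pathway genes higher and 25 lower, and 2225 of all genes higher and 1612 lower, on fewer animals. In animals 5 to 10, FBP1 was -0.079 (0.0932). On the 14 arrays, with the animal as a random block, PC was -0.028 (0.606) and 2527 genes were lower. On the arrays of scan session 3, a setting added after the data were seen, FBP1 was -0.070 (0.222), PC -0.23 (0.112), PCK2 -0.14 (0.0562) and G6PC3 0.084 (0.139), with 2 members lower and 0 higher by limma (3 and 0 unadjusted), 1 member probe higher, 21 pathway genes higher, and 2736 of all genes higher and 2357 lower. No session held both arrays of an animal, so the within-session setting was run on 1 array per animal. The r of PCK1 with G6PC was -0.059 without animals 6 and 9.

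Leaving out each animal in turn kept every member's call, with PCK1 at -1.59 to -1.43, G6PC at -0.86 to -0.74, PC at -0.26 to -0.17, PCK2 at -0.22 to -0.17, FBP1 at -0.13 to -0.093 and G6PC3 at 0.097 to 0.12. It gave 45 to 48 member probes lower. Averaged over its 9 probes, which lie on both strands, FBP1 was -0.36, and by their median -0.37. The authors' deposited log2 ratios averaged -1.53 for PCK1, -0.82 for G6PC, -0.22 for PC, -0.21 for PCK2, -0.12 for FBP1 and 0.13 for G6PC3. HFD animals could not be paired with single STD animals, because the study has 1 group of samples, each set against the same pool. Signal over background limited only the dimmest PCK2 probe.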
